A study of Mus musculus with 9 samples.

Results

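The interferon-induced genes examined here are a list of 36 genes whose transcription is switched on by interferons: sensors of foreign nucleic acid, antiviral effectors, and the factors that carry and restrain the interferon signal. A gene counted as measured when the array held a feature annotated with its symbol alone, and the feature with the highest mean over all arrays stood for it. By this rule 33 of the 36 genes were measured, among 19938 genes in all. Isg15 and Gbp2 were present only on features annotated with a second gene (Gm9706 and Gbp2b), no feature carried the name Ifi44, and these 3 genes have no value here. Irf1 had 2 features, and the gene Oas1a had a further feature, not used, that it shares with Oas1g.

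The samples were 9 mammary tumours, 3 from each of the transplantable mouse tumour cell lines NDL, Met1 and SSM2, measured on Affymetrix Mouse Gene 1.0 ST arrays. The comparisons ask how gene expression differs among tumours of the 3 lines, in a study that sets up a syngeneic model of ErbB2 tumours. Cells of each line were injected into uncleared fat pads of FVB/NJ females, 6 to 8 weeks old (the strain label reads FVB/N), and tumours were frozen at a width of 5 to 10 mm. The labels name no treatment in any group. The labels give no genotype, transgene or promoter for the lines. As background from outside the labels, NDL carries an activated ErbB2 (neu) transgene driven in mammary epithelium, and Met1 derives from a polyoma middle T tumour. Each line is a single cell line, and the tumours contain host stroma and immune cells besides the injected cells. The labels do not say whether the 3 samples of a line came from different mice, so n counts samples. A p-value weighs a difference between line means against the spread of samples within lines, which may be partly technical. It speaks for these cell lines and not for a tumour type. The number of arrays limits the precision of every value.

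As background, type I interferons signal through a receptor and the kinases Jak1 and Tyk2 to a complex that holds Stat2 and Irf9 and binds interferon-stimulated response elements in target promoters. Interferon gamma acts through its own receptor, Jak1 and Jak2, and its targets carry gamma-activated sites. In tumours this programme can run in cancer cells and in host cells alike, and bulk RNA does not tell them apart: fewer cells of a type and less RNA per cell give the same reading.

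RefSeq promoters on GRCm38.p6, each reaching from 250 bases before to 50 bases after a gene's start, were given for 24 of the 33 measured members. The core of the interferon-stimulated response element, GAAA followed by any 2 bases and a second GAAA on either strand, was present in 11 of these 24 genes (45.8%), against 3.99% of 27025 genes with a promoter in the table and 3.44% of its 32851 promoters. The gamma-activated site, TTCNNNGAA, which reads the same way on both strands, was present in 6 of the 24 (25%), against 9.55% of genes and 8.3% of promoters. Eif2ak2, Oas1a and Bst2 held both motifs, and in Bst2 the matches overlap. In Ifih1, Ddx58 and Eif2ak2 the response element match lies after the start of the gene, within the transcribed part. The windows below, 80 bases each from before the start, belong to the members with the widest spread between SSM2 tumours (Ifit1, Ifit3, Rsad2), between Met1 tumours (Stat2, Gbp3, Irf1) or to the synthetase Oas3, with capitals marking every base of a match. They are read 5′ to 3′ on the gene's strand, from chr19:34640769-34640848 (plus strand) for Ifit1, chr19:34583372-34583451 (plus) for Ifit3, chr12:26456528-26456607 (minus) for Rsad2, chr5:120777690-120777769 (minus) for Oas3, chr3:142559964-142560043 (plus) for Gbp3, chr10:128270248-128270327 (plus) for Stat2 and chr11:53769889-53769968 (plus) for Irf1.
Ifit1: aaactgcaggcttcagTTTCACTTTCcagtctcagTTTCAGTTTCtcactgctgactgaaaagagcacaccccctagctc
Ifit3: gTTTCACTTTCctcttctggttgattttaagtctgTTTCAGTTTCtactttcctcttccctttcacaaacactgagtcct
Rsad2: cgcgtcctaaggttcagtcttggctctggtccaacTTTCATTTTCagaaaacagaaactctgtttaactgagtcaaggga
Oas3: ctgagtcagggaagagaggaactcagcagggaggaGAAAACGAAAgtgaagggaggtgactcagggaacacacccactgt
Gbp3: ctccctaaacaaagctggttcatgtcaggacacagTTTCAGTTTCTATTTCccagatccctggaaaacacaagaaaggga
Stat2: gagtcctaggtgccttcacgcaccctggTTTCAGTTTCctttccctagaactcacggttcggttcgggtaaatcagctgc
Irf1: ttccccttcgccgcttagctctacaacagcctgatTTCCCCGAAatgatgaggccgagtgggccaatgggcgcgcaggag
Ifit1 and Ifit3 hold separate pairs of response element matches, Gbp3 holds a pair that share bases, and Irf1 holds a gamma-activated site and no response element match. The matches are a description of these letters, not of binding.

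Values throughout are log2 RMA signals, in which a difference of 1 is 2-fold, and all 33 members had a mean above the 25th percentile of gene means (4.91). Samd9l was the only member with a line mean under that level. Array medians over all genes ran from 6.33 (NDL replicate 2) to 6.51 (SSM2 replicate 1), and the upper quartiles of NDL replicates 1 and 2, 7.85 and 7.84, were under the 7.98 to 8.09 of the other 7 arrays. Erbb2 signal ran from 11.25 to 11.39 in NDL, from 7.15 to 7.64 in Met1 and from 8.71 to 8.98 in SSM2. All 10 epithelial markers were lower in Met1 than in either other line by limma's test across all genes, so the labelled mammary tumour tissue had its lowest epithelial signal there (list mean 7.08, against 10.22 in NDL and 10.67 in SSM2).

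None of the 33 members differed between lines after adjustment over all genes, while tumours of the same line, SSM2 above all, stood far apart from each other. The mean over the 33 members was 7.13, 7.34 and 7.98 in NDL replicates 1 to 3, 7.31, 7.56 and 7.49 in Met1, and 8.52, 7.79 and 6.91 in SSM2. SSM2 thus held both the highest and the lowest array of the series. The line means were 7.48 ± 0.45 in NDL, 7.45 ± 0.13 in Met1 and 7.74 ± 0.81 in SSM2 (SD, n = 3 each), so the lines lie closer together than the SSM2 tumours do.

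**Figure D1:**
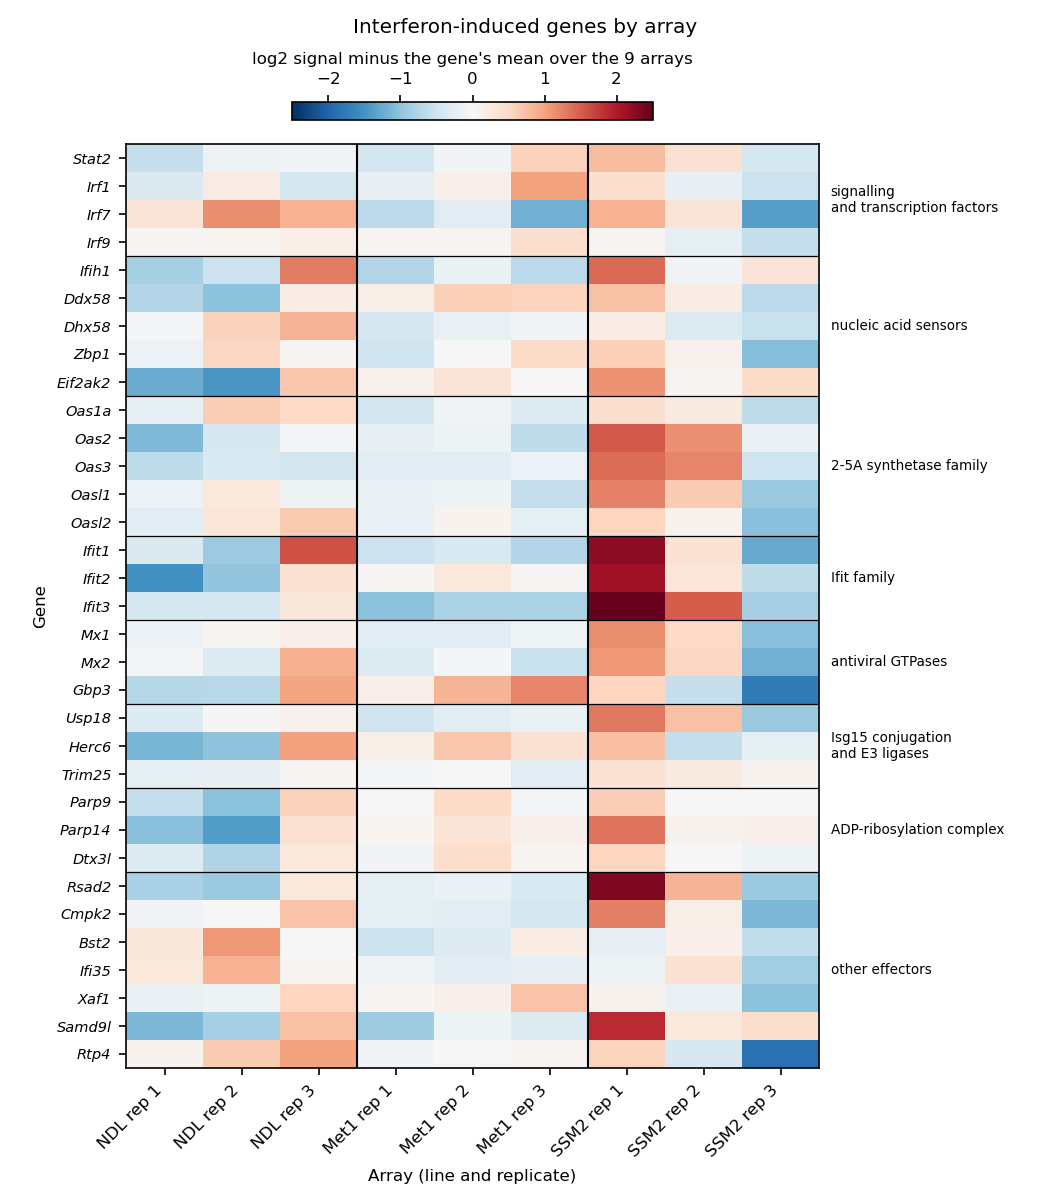
Heat map of the 33 measured members (rows, grouped by role) in the 9 arrays (columns, by line and replicate), coloured by log2 signal minus the gene's mean over the arrays. The column of SSM2 replicate 1 is the highest of its line for 31 of 33 genes, and that of SSM2 replicate 3 the lowest for 27.

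Over the 3 tumours of a line, the SD of a member had a median of 0.46 in NDL, 0.19 in Met1 and 0.82 in SSM2. The same median over all genes was 0.20, 0.11 and 0.18, and over genes with a mean above the 25th percentile it was 0.23, 0.13 and 0.22. The range between the highest and lowest tumour passed 2-fold for 26 of 33 members in SSM2, 15 in NDL and 3 in Met1, beside 10.8%, 11% and 2.05% of all genes. An SD above the 90th percentile of all genes was found for 25 members in SSM2, 13 in NDL and 10 in Met1. Of the whole variance of a member over the 9 arrays, the median share that lay between lines was 31.9%, against 50.8% for all genes and 92.9% for the epithelial markers. This share was not corrected for the number of lines, so genes that do not differ between lines also show some share. These are descriptions of the list, and the difference in spread was not tested.

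**Figure D2:**
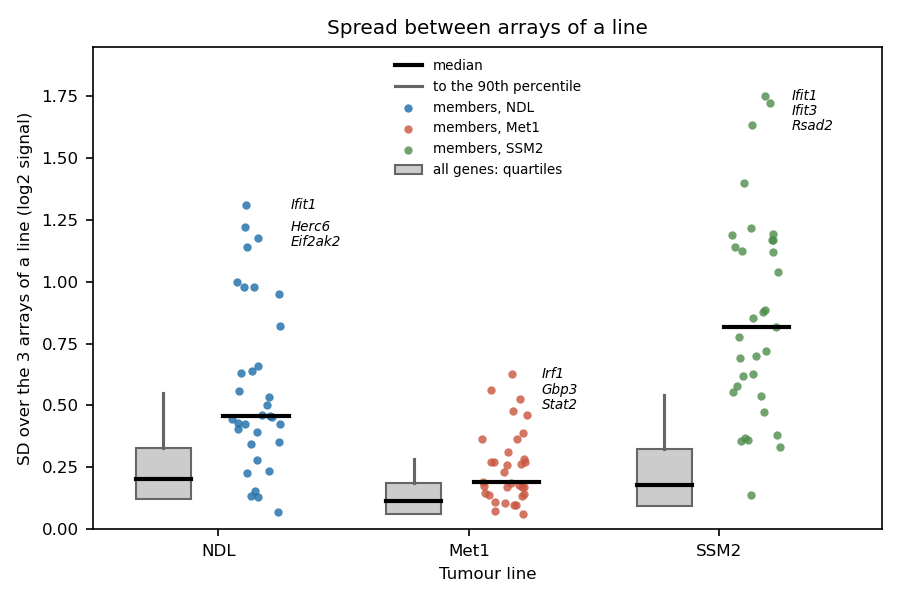
SD over the 3 arrays of each line (log2 signal) for each member (points, with the 3 largest named and the median as a bar) and for all genes (box from lower to upper quartile with the median, line up to the 90th percentile). The median member lies at 0.82 in SSM2, 0.46 in NDL and 0.19 in Met1, and the all-gene medians lie between 0.11 and 0.20.

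In SSM2, replicate 1 was the highest tumour for 31 of 33 members and replicate 3 the lowest for 27, where 39.6% and 31.8% of all genes had those places. Bst2 and Ifi35 were the exceptions at the top, with replicate 2 highest. Ifih1, Eif2ak2, Herc6, Parp9, Parp14 and Samd9l were lowest in replicate 2. The order of replicate 1 over 2 over 3 held for 25 members, against 19.4% of all genes. Replicate 1 exceeded replicate 3 by a median of 1.43 log2 over the members, with a range from 0.28 (Trim25) to 3.50 (Ifit1). After setting the arrays to equal medians, which lowered the member mean of SSM2 replicate 1 from 8.52 to 8.40, the counts were 30 and 27, and after cyclic loess they were 31 and 27.

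In NDL, replicate 3 was the highest tumour for 25 of 33 members and replicate 1 the lowest for 21, against 32.5% and 23.2% of all genes. Under cyclic loess these counts were 24 and 15, and under equal medians 22 and 20. Measures of the whole arrays differed as well. Limma's array weight was 0.46, 0.64 and 0.31 in NDL replicates 1 to 3, and 0.98, 1.25 and 0.59 in SSM2. In Met1 it ran from 1.26 to 3.78. SSM2 replicate 3 thus had a lower weight than NDL replicate 2. The lowest correlation between NDL arrays over all genes was 0.947, below the highest between arrays of different lines (0.949), where the lowest was 0.962 within SSM2 and 0.987 within Met1. The part of these differences in the spread of the members was not tested. In Met1, replicate 2 was highest for 18 members and replicate 1 lowest for 19, over a far smaller spread.

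Among the factors that carry the signal, Stat2, the partner of Irf9 in the interferon-activated complex, gave 7.82, 8.26 and 8.33 in NDL replicates 1 to 3, 7.93, 8.33 and 8.97 in Met1, and 9.16, 8.78 and 7.95 in SSM2. Irf1, a factor induced mainly through gamma-activated sites, gave 8.75, 9.32 and 8.67 in NDL, 8.91, 9.24 and 10.12 in Met1, and 9.50, 8.91 and 8.57 in SSM2. For both genes Met1 replicate 3 lay above the other Met1 tumours, and they were among the 3 members with the largest SD in that line (0.52 and 0.63). Irf7, which amplifies interferon production, gave 9.11, 9.96 and 9.65 in NDL, 8.12, 8.50 and 7.58 in Met1, and 9.65, 9.10 and 7.41 in SSM2. All NDL tumours lay above all Met1 tumours for Irf7, and SSM2 replicate 3 lay below every other array. The NDL over Met1 difference in Irf7 was 1.50 ± 0.53 log2 (SE), or 2.83-fold, with an adjusted p of 0.0888 by limma over all genes. Irf9, the DNA-binding part of that complex, had line SDs of 0.07, 0.19 and 0.33 in NDL, Met1 and SSM2.

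Among the nucleic acid sensors, Eif2ak2 and Ifih1 had their largest SD in NDL (1.18 and 1.14). Eif2ak2 (PKR), a kinase that stops translation on binding double-stranded RNA, gave 5.58, 5.35 and 7.50 in NDL replicates 1 to 3, 6.92, 7.14 and 6.80 in Met1, and 7.94, 6.87 and 7.27 in SSM2. NDL replicates 1 and 2 lay below all other arrays, while NDL replicate 3 lay within the range of SSM2. Ifih1 (MDA5), a sensor of long double-stranded RNA, gave 6.05, 6.34 and 8.16 in NDL, 6.14, 6.71 and 6.20 in Met1, and 8.28, 6.78 and 7.19 in SSM2. NDL replicate 3 and SSM2 replicate 1 thus stood above the other 7 arrays for Ifih1. Ddx58 (RIG-I), a sensor of RNA ends, gave 8.01, 7.71 and 8.94 in NDL, 8.92, 9.33 and 9.30 in Met1, and 9.48, 8.94 and 8.09 in SSM2. Dhx58, a regulator of these sensors, had line means of 7.99 ± 0.45, 7.31 ± 0.18 and 7.29 ± 0.38 in NDL, Met1 and SSM2 (SD, n = 3), and all NDL tumours lay above all Met1 tumours. Zbp1, a sensor of Z-form nucleic acid linked to cell death, ranged from 7.02 to 8.68 in SSM2, with the lowest value of all arrays in replicate 3.

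The 2-5A synthetases make the messenger that activates RNase L. Oas2 gave 5.98, 6.68 and 7.03 in NDL, 6.88, 6.95 and 6.45 in Met1, and 8.60, 8.23 and 6.92 in SSM2. Oas3 gave 5.80, 6.05 and 5.97 in NDL, 6.17, 6.16 and 6.27 in Met1, and 7.82, 7.65 and 5.93 in SSM2. For both genes SSM2 replicates 1 and 2 stood above every tumour of the other lines, and replicate 3 lay among them. Oasl1, a relative without synthetase activity, gave 8.64, 8.03 and 6.46 in SSM2, where the first values lay above every tumour of the other lines and the last below every one. Oas1a and Oasl2 ranged over 2.05-fold and 3.00-fold in SSM2, with line means that differed by at most 0.58 and 0.37 log2.

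The Ifit proteins, which bind foreign RNA and block its translation, had the highest median SD of the 8 roles in SSM2 (1.72) and in NDL (0.98). Ifit1 gave 6.41, 5.87 and 8.36 in NDL, 6.25, 6.40 and 6.05 in Met1, and 9.01, 7.13 and 5.51 in SSM2. The SSM2 tumours were 11.3-fold apart for Ifit1, with replicate 1 the highest and replicate 3 the lowest of all 9 arrays. Ifit3 gave 6.38, 6.34 and 7.06 in NDL, 5.76, 5.99 and 5.99 in Met1, and 9.31, 8.29 and 5.95 in SSM2, a 10.3-fold range. Ifit2 gave 5.01, 5.53 and 6.90 in NDL, 6.54, 6.78 and 6.54 in Met1, and 8.64, 6.81 and 5.88 in SSM2. The mean of the 3 Ifit genes stayed between 6.18 and 6.39 in Met1, while it ran from 5.91 to 7.44 in NDL and from 5.78 to 8.99 in SSM2.

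Among the antiviral GTPases, Mx1 gave 5.81, 6.01 and 6.07 in NDL, 5.66, 5.70 and 5.84 in Met1, and 7.11, 6.44 and 4.91 in SSM2. Its relative Mx2 had the same order in SSM2, at 6.71, 6.13 and 4.41. For both, SSM2 replicate 3 was the lowest of the 9 arrays. Gbp3, a guanylate-binding protein of a family that acts on the membranes around intracellular pathogens, gave 7.56, 7.57 and 9.26 in NDL, 8.40, 9.12 and 9.50 in Met1, and 8.81, 7.70 and 6.53 in SSM2. Gbp3 was thus spread widely in every line, with SDs of 0.98, 0.56 and 1.14.

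Of the genes of the Isg15 system, Usp18, which removes Isg15 from proteins and dampens the type I receptor, gave 7.47, 7.83 and 7.92 in NDL, 7.31, 7.52 and 7.65 in Met1, and 9.13, 8.54 and 6.87 in SSM2. Herc6, the main mouse ligase for Isg15, gave 6.40, 6.54 and 8.59 in NDL, 7.70, 8.24 and 7.92 in Met1, and 8.30, 6.96 and 7.34 in SSM2. NDL replicate 3 was 4.54-fold above NDL replicate 1 for Herc6. Trim25, a ubiquitin ligase that activates RIG-I, was the steadiest member in SSM2, with 8.99, 8.84 and 8.71 there against 8.40, 8.41 and 8.67 in NDL and 8.59, 8.61 and 8.35 in Met1. All SSM2 tumours lay above all others for Trim25, by 0.35 ± 0.13 log2 over NDL and 0.33 ± 0.13 over Met1 (SE), with adjusted p of 0.0933 and 0.149 by limma.

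Parp9, Parp14 and Dtx3l, whose products work in ADP-ribosylation, had the lowest median SD of the 8 roles in SSM2 (0.36), against 0.82 in NDL. Parp14 gave 6.76, 6.41 and 8.21 in NDL, 7.87, 8.14 and 7.94 in Met1, and 9.17, 7.90 and 7.94 in SSM2. Parp9 gave 7.74, 7.31 and 8.90 in NDL, 8.34, 8.80 and 8.29 in Met1, and 8.95, 8.32 and 8.34 in SSM2. NDL replicate 3 was the highest tumour of its line for all 3 genes, as it was for the Ifit genes, and SSM2 replicates 2 and 3 differed by 0.15 log2 (Dtx3l) or less.

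Among the other effectors, Rsad2 (viperin), an enzyme that makes a chain terminator of viral RNA synthesis, gave 5.80, 5.67 and 6.87 in NDL, 6.37, 6.43 and 6.22 in Met1, and 8.95, 7.46 and 5.68 in SSM2, a 9.61-fold range in the last. Its genomic neighbour and partner enzyme Cmpk2 gave 7.90, 6.77 and 5.51 in SSM2, against line means of 6.85 in NDL and 6.31 in Met1. Rtp4, a chaperone of receptors with antiviral activity, gave 9.12, 9.67 and 10.04 in NDL, 8.96, 9.05 and 9.11 in Met1, and 9.59, 8.63 and 7.17 in SSM2. Samd9l, a restriction factor of poxviruses, gave 3.99, 4.28 and 5.85 in NDL, 4.22, 4.98 and 4.77 in Met1, and 6.98, 5.38 and 5.55 in SSM2. These genes shared a high SSM2 replicate 1, and all but Samd9l had their lowest SSM2 value in replicate 3. Bst2 (tetherin), which holds budding virus at the cell surface, departed from them, with its highest value of all arrays, 9.93, in NDL replicate 2 and only 1.67-fold between the SSM2 tumours. Ifi35 was also highest in NDL replicate 2 (9.13), and Xaf1, a gene linked to cell death, was highest in Met1 replicate 3 (7.76).

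Between NDL and Met1, limma called 0 of 33 members at an adjusted p under 0.05, where it called 19.1% of all genes. Irf7, Ddx58 and Dhx58, or 3 members, had an unadjusted p under 0.05, beside 32.7% of all genes. The tumours of the 2 lines did not overlap for 6 members higher in NDL (Irf7, Dhx58, Ifit3, Cmpk2, Ifi35 and Rtp4, beside 19.5% of all genes) and for 1 lower, Oas3 (beside 18.6%). The median difference over the members was 0.05 log2, against 0.06 over all genes, with single members from -0.96 (Ddx58) to 1.50 (Irf7). Fitted without SSM2, the difference of Irf7 was called with an adjusted p of 0.0163 (beside 9.45% of all genes called higher), and without SSM2 replicate 3 with 0.0109 (beside 9.86%). Without NDL replicate 1, Dhx58 was called higher in NDL, at 0.93 log2, beside 6.12% of all genes. Without NDL replicate 3, 5 members were called lower in NDL (Ddx58, Eif2ak2, Herc6, Parp14 and Parp9, by 0.95 to 1.49 log2), beside 16.4% of all genes.

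Between NDL and SSM2, 0 of 33 members passed limma's adjusted threshold, beside 16.9% of all genes. An unadjusted p under 0.05 was found for 6 members (Oas2, Oas3, Trim25, Dhx58, Parp14 and Eif2ak2), beside 34.2% of all genes. The smallest adjusted p was 0.0663, for Oas2, at -1.35 ± 0.43 log2 (SE). The tumours did not overlap for Trim25, lower in NDL (beside 12% of all genes), and for 0 members higher in NDL (beside 19.7%). The median difference was -0.33 log2, against 0.09 over all genes. Without SSM2 replicate 3, 7 members were called lower in NDL: Ifit3, Mx1, Oas2, Oas3, Oasl1, Rsad2 and Usp18, beside 7.65% of all genes. Oas3 then differed by -1.79 log2 with an adjusted p of 0.000123, and Ifit3 by -2.21. Without NDL replicate 3, the 6 members called lower in NDL were Eif2ak2, Oas2, Parp14, Parp9, Samd9l and Trim25, beside 15.2% of all genes. Oas2 was in both sets. Without SSM2 replicate 1 the call was Rtp4, higher in NDL by 1.71 log2 (beside 7.82% of all genes), and without NDL replicate 1 it was Dhx58, by 0.95 log2 (beside 5.99%).

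Between Met1 and SSM2, limma called 0 of 33 members, beside 11.8% of all genes, and 5 members had an unadjusted p under 0.05 (Ifit3, Oas2, Trim25, Irf9 and Samd9l), beside 23.7%. The largest difference was that of Ifit3, -1.94 ± 0.71 log2 (SE), with an adjusted p of 0.131. Ifih1, Samd9l and Trim25 did not overlap, all 3 lower in Met1 (beside 13.1% of all genes), and 0 members did so in the other direction (beside 18.6%). The median difference was -0.33 log2, against 0.04 over all genes. Without SSM2 replicate 3, 8 members were called lower in Met1, beside 5.85% of all genes: the 7 named for NDL against SSM2, and Irf7. With arrays weighted by their fit, Ifit3, Oas2 and Oas3 were called lower in Met1, beside 8.95% of all genes. The F-test over the 3 lines called 0 members and 25.1% of all genes. It called 8 members and 26% of all genes without SSM2 replicate 3, and 6 members and 41.7% of all genes without NDL replicate 3. The 3 comparisons share arrays, so their counts are not independent of each other. A p that misses the threshold does not show that the lines are alike in these genes.

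**Figure D3:**
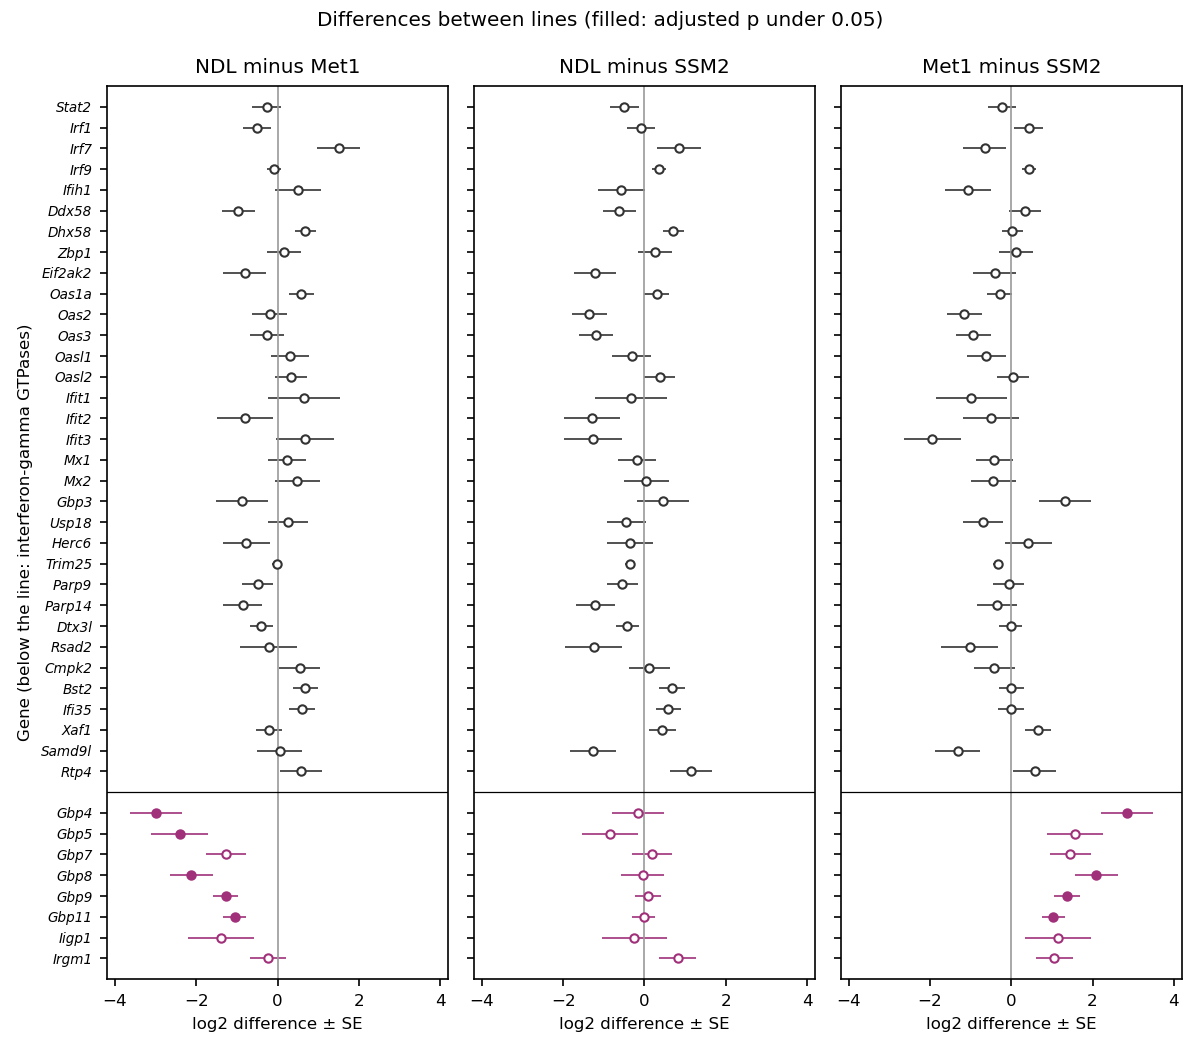
Difference between lines (log2, point) with its SE (bar) for the 33 members and, under the horizontal line, the 8 interferon-gamma GTPases, in each of the 3 comparisons. Filled points passed an adjusted p of 0.05 over all genes: 0 of the 33 members, and for Met1 against each other line Gbp4, Gbp8, Gbp9 and Gbp11, with Gbp5 against NDL alone.

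The other genes of the pathway were taken from separate lists, whose counts stand beside all genes called higher and lower: 8.88% and 10.2% for NDL against Met1, 9.35% and 7.52% for NDL against SSM2, and 7.1% and 4.71% for Met1 against SSM2. Of 19 interferon ligand genes 15 were measured, and Ifnb1, Ifna4, Ifna11, Ifna12 and Ifna13 lay under the 25th percentile of gene means on all 9 arrays. Ifnb1 ran from 3.83 to 4.55, and Ifng, the ligand of the gamma receptor, from 4.68 to 5.67. Ifnk, an epithelial type I interferon, was the 1 ligand of 15 called, a share near that of all genes. It gave 6.67, 5.74 and 4.51 in SSM2 against 3.59 to 4.15 elsewhere, and was lower in NDL by 1.79 log2 and in Met1 by 1.98 (adjusted p of 0.0297 and 0.0237). The SSM2 tumours did not overlap the others for Ifnk, and their order was that of the Ifit genes. The Ifnk calls were kept in 3 and 5 of the 9 fits that left out 1 array, against NDL and Met1 respectively.

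All 9 listed receptors and proximal kinases were measured. Ifnar1 and Ifnar2, the chains of the type I receptor, ran from 8.58 to 9.36 and from 8.38 to 9.13 over the series, Jak1 from 8.56 to 10.05 and Tyk2 from 7.08 to 7.54, and limma called none of these in any comparison. Jak2, the kinase of the gamma receptor and of several cytokine receptors, gave 10.82, 10.13 and 10.99 in SSM2, 6.55, 5.73 and 8.66 in NDL, and 7.45, 7.98 and 7.46 in Met1. It was lower in NDL than in SSM2 by 3.66 ± 0.65 log2 and in Met1 by 3.02 ± 0.65 (adjusted p of 0.00656 and 0.0185), and SSM2 replicate 3 was the highest array. The call against Met1 was lost without Met1 replicate 1, Met1 replicate 3 or SSM2 replicate 1. Ifnlr1, the lambda receptor chain, was higher in NDL than in Met1 by 1.05 log2 and lower in Met1 than in SSM2 by 0.63. Ifngr1 was lower in NDL than in Met1 by 1.39 log2.

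Of 11 listed STATs, IRFs and inhibitors 10 were measured. Irf3, which starts interferon transcription after sensing, was higher in NDL than in Met1 by 1.00 log2 and lower in Met1 than in SSM2 by 0.67. Irf5 was lower in NDL than in Met1 by 1.19 and higher in Met1 than in SSM2 by 1.08, and Irf8, a factor of macrophages and dendritic cells, was higher in Met1 than in SSM2 by 1.20. The inhibitor Socs3 was lower in NDL than in Met1 by 1.08 and than in SSM2 by 1.12, and the phosphatase Ptpn2 was lower in NDL than in SSM2 by 1.28. Of 10 sensing adaptors and kinases 9 were measured, and Mavs and Ticam1, the adaptors of the RNA sensors and of a toll-like receptor, were called higher in NDL than in Met1 (by 0.49 and 0.51) and than in SSM2 (by 0.61 and 0.74).

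Of 16 listed GTPases that are induced mainly by interferon gamma, 8 were measured. Limma called 5 of 8 lower in NDL than in Met1, beside 10.2% of all genes, and 4 of 8 higher in Met1 than in SSM2, beside 7.1%. Gbp4 gave 8.70, 9.65 and 10.48 in Met1, 6.27, 6.66 and 6.90 in NDL, and 8.20, 6.37 and 5.72 in SSM2. It was lower in NDL than in Met1 by 3.00 ± 0.64 log2 and higher in Met1 than in SSM2 by 2.84 ± 0.64 (SE, adjusted p of 0.0128 and 0.0228). Gbp5, Gbp8, Gbp9 and Gbp11 were lower in NDL than in Met1 by 2.41, 2.13, 1.28 and 1.06 log2, and Gbp8, Gbp9 and Gbp11 were higher in Met1 than in SSM2 by 2.09, 1.37 and 1.04. Between NDL and SSM2 limma called 0 of 8, with 0 at an unadjusted p under 0.05. The median difference over the 8 was -1.34 log2 for NDL against Met1 and 1.41 for Met1 against SSM2. These calls were sensitive to single tumours: without Met1 replicate 3, 0 were called in either comparison. Lower in NDL than in Met1 were 0 without NDL replicate 1, and 1 without NDL replicate 2 or Met1 replicate 2. Higher in Met1 than in SSM2 were 0 without Met1 replicate 2, SSM2 replicate 2 or SSM2 replicate 3, and 2 without NDL replicate 1 or 2. Gbp4, Gbp8, Gbp9 and Gbp11 are closely similar genes, and a further feature carries their names together with Gbp6 and Gbp10, so their separate values are uncertain.

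A further list of 59 interferon-induced genes, of which 52 were measured, gave 4 higher and 6 lower in NDL than in Met1, 5 higher and 7 lower in NDL than in SSM2, and 2 higher and 1 lower in Met1 than in SSM2. Pml, the organiser of nuclear bodies, gave 9.28, 9.54 and 9.06 in NDL, 7.74, 7.68 and 7.89 in Met1, and 7.93, 7.62 and 7.79 in SSM2, and was higher in NDL by 1.52 and 1.51 log2 (adjusted p of 0.00027 and 0.000295). Isg20, an exonuclease, was lower in NDL than in Met1 by 1.16 and than in SSM2 by 1.28. The SDs within NDL, Met1 and SSM2 were 0.24, 0.11 and 0.15 for Pml and 0.04, 0.20 and 0.28 for Isg20. Both genes were called in each of the 9 fits that left out 1 array. Cxcl9, a T cell attractant induced by interferon gamma, was lower in NDL than in Met1 by 2.55 and higher in Met1 than in SSM2 by 2.54. Ifi27 was higher in NDL than in Met1 by 1.15. Slfn4, a gene of myeloid cells, gave 11.24, 9.10 and 6.86 in SSM2 and was lower in NDL by 3.48, and the HIN-200 family genes Ifi203, Ifi205 and Ifi202b were lower in NDL than in SSM2 by 2.00, 1.96 and 1.71. Lgals9 was lower in Met1 than in SSM2 by 0.89, and Mov10 was higher there by 0.69. Of 41 calls on named pathway genes over the 3 comparisons, 11 were kept in all 9 fits without 1 array: those of Irf3, Irf5, Ifnlr1, Isg20 and Pml for NDL against Met1, of Jak2, Mavs, Ticam1, Isg20 and Pml for NDL against SSM2, and of Irf3 for Met1 against SSM2. Each of the other calls was lost in at least 1 such fit.

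Markers of several kinds of host cell moved with the members between the SSM2 tumours, and others did not. The mean of 11 macrophage markers was 9.74, 9.12 and 8.35 in SSM2 replicates 1 to 3, and all 11 markers had that order, with a median difference of 1.26 log2 between replicates 1 and 3. Fibroblast markers gave 10.67, 9.85 and 9.02 (7 of 8 in that order), neutrophil markers 6.48, 5.75 and 4.66 (6 of 9), endothelial markers 7.83, 7.50 and 7.10 (8 of 8) and T and NK cell markers 5.38, 4.94 and 4.74 (9 of 11). Plasmacytoid dendritic cell markers gave 6.86, 6.61 and 6.04 (3 of 6). Ly6d weighed most in that mean, at 11.84, 11.98 and 9.17, with a difference of 2.66 log2 between replicates 1 and 3. The other markers of that list differed by -0.08 (Pacsin1) to 0.95 (Siglech). Conventional dendritic cell markers gave 5.65, 5.44 and 5.43 (4 of 8) and B cell markers 4.61, 4.42 and 4.54 (0 of 5). Epithelial markers did not move in this way, at 10.70, 10.58 and 10.74 (1 of 10). The part of these cells in the spread of the members was not tested.

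In NDL the mean of the macrophage markers was 8.91, 9.31 and 8.68 and that of the neutrophil markers 4.86, 5.03 and 4.56. Both means were lowest in replicate 3, the tumour in which 25 of 33 members were highest. Single markers went the other way: Mrc1 and Mertk (7.39 and 7.37) and the neutrophil marker Ly6g (4.34) were highest in replicate 3. Csf3r was lowest in replicate 1 and Mmp8 in replicate 2. The mean of the fibroblast markers was highest in replicate 3, at 9.12 against 8.86 and 8.69, but single markers differed. Pdgfrb was lowest there, at 7.67 against 8.45 and 8.50. Pdgfra and Col1a1 were highest in replicate 1 (7.90 and 12.23, against 7.89 and 12.16 in replicate 3). In Met1 the mean of the macrophage markers lay between 9.93 and 10.18, above that of every array of the other lines. Of the 11 markers, Cd14 alone had a higher line mean in NDL than in Met1, at 10.04 against 8.60. Mrc1 alone had a higher line mean in SSM2 than in Met1, at 9.18 against 9.06. The mean of the T and NK cell markers was highest in Met1 replicate 3 (5.72, against 5.37 in each of the others). That tumour had the highest Met1 mean of the interferon-gamma GTPases (8.78, against 7.26 and 7.94). Epithelial markers were lowest in that tumour (6.13, against 7.48 and 7.64). The part of these cells in the values of Met1 was not tested either. Clec9a of the conventional dendritic cell markers, Ncr1, Klrb1c and Gzma of the T and NK cell markers, Ms4a1 and Cd79a of the B cell markers, and Mmp8 and Ngp of the neutrophil markers lay under the 25th percentile of gene means on all arrays.

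**Figure D4:**
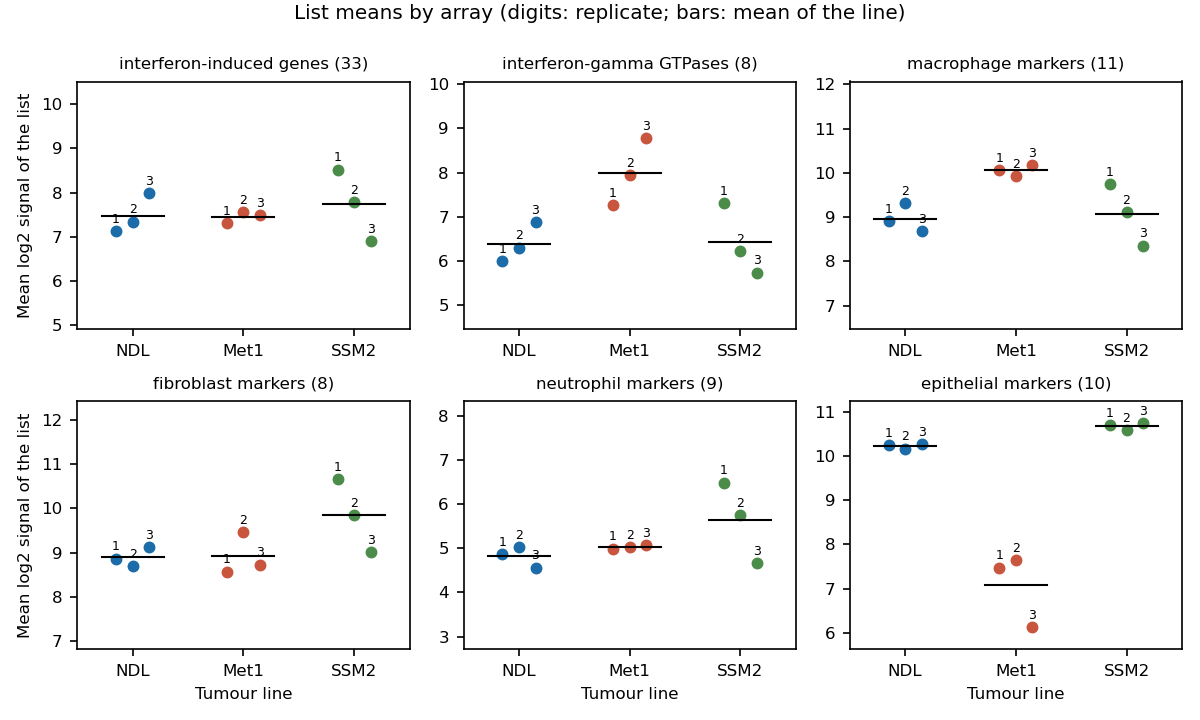
Mean log2 signal per array of the 33 members, the 8 interferon-gamma GTPases and 4 marker lists (points numbered by replicate, bars at the mean of the line), with axes of equal height. The members, the GTPases and the macrophage, fibroblast and neutrophil markers are all highest in SSM2 replicate 1 and lowest in replicate 3 of that line, and the epithelial markers there lie between 10.58 and 10.74.

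The members were also split by the response element in their promoters. Between SSM2 replicates 1 and 3 the median difference was 1.39 log2 for the 11 members with the motif, 1.10 for the 13 without and 1.69 for the 9 with no promoter in the table. Ifit1, Ifit3 and Rsad2 lie at the upper end of the first group. Their windows are printed above because of their wide SSM2 spread, so this place says nothing further about the motif. Bst2, with a pair of matches, had the smallest difference in that group (0.41). All 3 interferon-gamma GTPases with a promoter in the table (Gbp5, Gbp7 and Irgm1) held the element, beside 3.99% of genes. A gamma-activated site was present in 2 of these 3, beside 9.55% of genes. Of the 3, Gbp5 alone was called in a comparison, and the called Gbp4, Gbp8, Gbp9 and Gbp11 had no promoter in the table. No test was made of these differences.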

How the data were processed

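Total RNA of 9 snap-frozen tumours (3 lines, 3 samples each) was hybridised to 1-colour arrays, with 100 ng of RNA labelled per array according to the labels. The deposited table holds log2 signals made by the authors with RMA, which corrects background, normalizes between arrays and summarises probes; RMA and oligo 1.40.2 are credited to the submitters' processing notes, and the transcript annotation behind the table is not given in the sources used here. Scanner files were not used here. Of 35556 features, 21789 had 1 gene symbol in the platform's annotation, 1621 several and 12146 none; 21698 of the 21789 symbols were matched to the RefSeq gene table. The feature with the highest mean stood for a gene (19938 genes).

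Limma 3.58.1 in R 4.3.3 (lmFit and eBayes, two-sided, no covariate) was fitted to all 9 arrays and all genes, with Benjamini-Hochberg adjustment over all genes and a threshold of 0.05; each adjusted p in the text is from this test. The script was tested on simulated data. Motifs were searched in RefSeq promoters (GRCm38.p6) with pandas 2.3.3. Alternatives were array weights, a filter at the 25th percentile of mean signal, a mean over the features of a gene, cyclic loess, medians set equal, a trend on intensity with a robust fit, the replicate number as a block, the lines in pairs, each array left out, and NDL replicates 1 and 2 left out together; those for the interferon-gamma GTPases and other pathway genes were added after the data were seen. No pairing of the samples by the replicate numbers of the titles was seen, and the main fit included none.

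The members and lists were chosen with earlier results of these data known. By rule, values per array are given for members called in a comparison and for the 3 members with the largest SD in each line, and pathway genes are named where called (all up to 5 calls in a list and comparison, otherwise the 4 with the largest difference). Pml and Isg20 for NDL against SSM2, and the per-array values of members and pathway genes beyond the rule, were picked with their values in view.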

Additional observations from a re-analysis of the deposited data

How the results depend on the processing

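The counts of 0 members held under cyclic loess, the filter on low signal, equal medians, a mean over the features of a gene, and a robust fit with a trend. Leaving out 1 array gave 0 to 1 members higher and 0 to 5 lower in NDL than in Met1 (11.9% to 33.3% of all genes in either direction). For NDL against SSM2 it gave 0 to 1 higher and 0 to 7 lower (9.39% to 35.2%). For Met1 against SSM2 it gave 0 higher and 0 to 8 lower (6.82% to 13.8%), and by the F-test 0 to 8 (16.8% to 41.7%). The counts of 5, 7 and 8 lower stood beside 16.4%, 7.65% and 5.85% of all genes called lower in the same fits. The 2 lines fitted alone gave 1 member (Irf7) higher in NDL than in Met1, beside 9.45% of all genes. Array weights gave 3 lower in Met1 than in SSM2 (beside 8.95% of all genes) and 3 by the F-test (30.7%). Of interferon-gamma GTPases lower in NDL than in Met1 (5), leaving out 1 array gave 0 to 6, beside the shares of all genes above. Array weights gave 2, beside 20.9% of all genes in either direction. Of those higher in Met1 than in SSM2 (4), leaving out 1 array gave 0 to 3, beside the shares above. The 2 lines alone gave 1, beside 11.6% of all genes in either direction. Without NDL replicates 1 and 2, where the lone NDL array is assumed to vary like the other groups, Eif2ak2 for NDL against SSM2 turned from -1.21 to 0.14. The cause was not tested, except that fits without an array use fewer samples.

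With the replicate number as a block, 0 members were called in each comparison, and 2 GTPases were lower in NDL than in Met1 and 0 higher in Met1 than in SSM2; all-gene calls fell to 3343, 2779 and 1968 from 3814, 3364 and 2356. Same-numbered samples of different lines deviated from their line means with r from -0.35 to 0.29 across genes (3 of 9 pairs over 0.1). The same number was found in 4 of 18 best matches. No pairing by number was seen, but so few pairs cannot show that there is none. The member means per array moved by less than the SD of the array means of their line under every scaling tried. The median SDs within lines moved by less than their own size, a wide limit that shows little. The number of arrays per line limits all of these counts.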
